A study of Sus scrofa with 12 samples.

Results

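The probes described here are named for 6 genes of the response to bacteria. These genes are the surface receptors TLR2, TLR4 and CD14, the sensor NOD1 inside the cell, and the NF-kB transcription factors NFKB1 (probe TCR27) and RelB. The probes were chosen by the name printed for each spot in the scanner files, with earlier results of the same arrays known. Their ratios between genotypes are therefore a description. Intervals and counts of calls from the fit over all probes are printed for scale, beside the share of all probes called, and nothing is read from them. They are 6 of the 188 gene probes on the array, and all 6 were among the 185 probes that passed the filter on dim signal. Each had 8 spots per array spread over 4 print blocks, and each name matched a gene in the pig gene table.

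Toll-like receptor TLR2 binds bacterial lipoproteins and TLR4 responds to lipopolysaccharide of Gram-negative bacteria, which CD14 hands over to it. NOD1 recognises fragments of the bacterial cell wall in the cytoplasm. All these routes end in the release of NF-kB, a family of dimeric transcription factors, into the nucleus, where they switch on inflammatory cytokines and chemokines. In human and mouse blood, monocytes carry the most TLR2, TLR4 and CD14 among mononuclear cells.

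The study took venous blood from 6 boars, 2 for each with each of 3 SLA-DRB1 genotypes. SLA-DRB1 encodes the beta chain of a pig class II molecule, which presents peptides to T cells. The genotypes are allele 050502, allele 070701 and an allele described as potentially new, here called New. Mononuclear cells were separated on a density gradient and given no treatment, and their RNA was amplified in 1 round, coupled to fluorescent dyes and hybridised to 12 spotted cDNA arrays. The labels used here state neither breed nor age, nor which hybridisations share an animal.

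Each array held cells of a boar of 1 genotype in the red channel and of a boar of another genotype in the green, and the same RNAs were hybridised again with the dyes exchanged. Every genotype pair was covered by 2 such hybridised pairs, A and B, with 2 arrays each. A log2 ratio is the first-named genotype over the second, so 1 is a doubling, and n = 2 hybridised pairs stands behind each mean ratio and its SD. The boars of a genotype are separate animals, but with so few of them each interval describes these boars more than their genotype. In whole-cell RNA, fewer cells of a type and less RNA per cell cannot be told apart.

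Median spot brightness over the 12 arrays ran from 382 to 2004 in red and from 498 to 2078.5 in green. Median local background lay between 96 and 320 in red and between 113 and 359.5 in green, and 128 of the 185 probes exceeded it on all 12 arrays. The hybridised pairs A and B of 050502 vs New went in opposite directions: across probes, r between them was -0.54, against 0.60 for 050502 vs 070701 and 0.64 for 070701 vs New, values that describe the arrays since probes are not replicates. The direction of 050502 vs New is therefore not settled, and its ratios are given as labelled, or by pair, and with the sign of its pair A turned. Turning that pair was chosen after its values were seen.

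Brightness was compared with 2 bacterial DNAs spotted as negative controls, VapA (a virulence gene of Rhodococcus equi) and the cloning plasmid pACYC177, each with 16 spots per array. Probes differ in length and sequence, so these differences in log2 intensity say how far a signal stood above non-matching DNA and not how much RNA of each gene was present. TLR2 and NFKB1 were the members brighter than both controls, as were 49 of the 185 probes in all. TLR2 exceeded VapA by 2.48 ± 0.83 (SD over 12 arrays), a 5.56-fold difference, and pACYC177 by 1.67 ± 0.83, 3.19-fold. It was above both DNAs on 12 of 12 arrays and in 24 of 24 channels. NFKB1 exceeded VapA by 1.40 ± 0.50 (2.64-fold, 12 of 12 arrays) and pACYC177 by 0.60 ± 0.46 (1.51-fold, 11 of 12 arrays, 22 of 24 channels).

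The other 4 members were about as bright as the bacterial DNA. CD14 lay 0.23 ± 0.58 above VapA, on 8 of 12 arrays, and -0.57 ± 0.59 from pACYC177, with 1 of 12 arrays above it. NOD1 lay 0.04 ± 0.23 from VapA, with 6 of 12 arrays above, and -0.76 ± 0.23 from pACYC177. RelB lay -0.02 ± 0.17 from VapA, with 5 of 12 arrays above, and -0.82 ± 0.17 from pACYC177. TLR4 lay -0.15 ± 0.37 from VapA, with 4 of 12 arrays above, and -0.95 ± 0.39 from pACYC177. NOD1, RelB and TLR4 were above pACYC177 in 0 of 24 channels. How much of the signal of these 4 probes came from the named gene was not measured.

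All members still stood above the local slide background in most channels, at 2 background SD. TLR2 and NFKB1 did so in 24 of 24 channels, CD14, NOD1 and RelB in 23, and TLR4 in 21. VapA itself was above background in 22 and pACYC177 in 23, so passing this filter does not separate a member from non-matching DNA. The member channels that did not pass were all on arrays A1 and B1 of 050502 vs New. The rank of mean brightness among the 185 probes was 17 for TLR2, 34 for NFKB1, 83 for CD14, 102 for NOD1, 110 for RelB and 122 for TLR4.

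**Figure D1:**
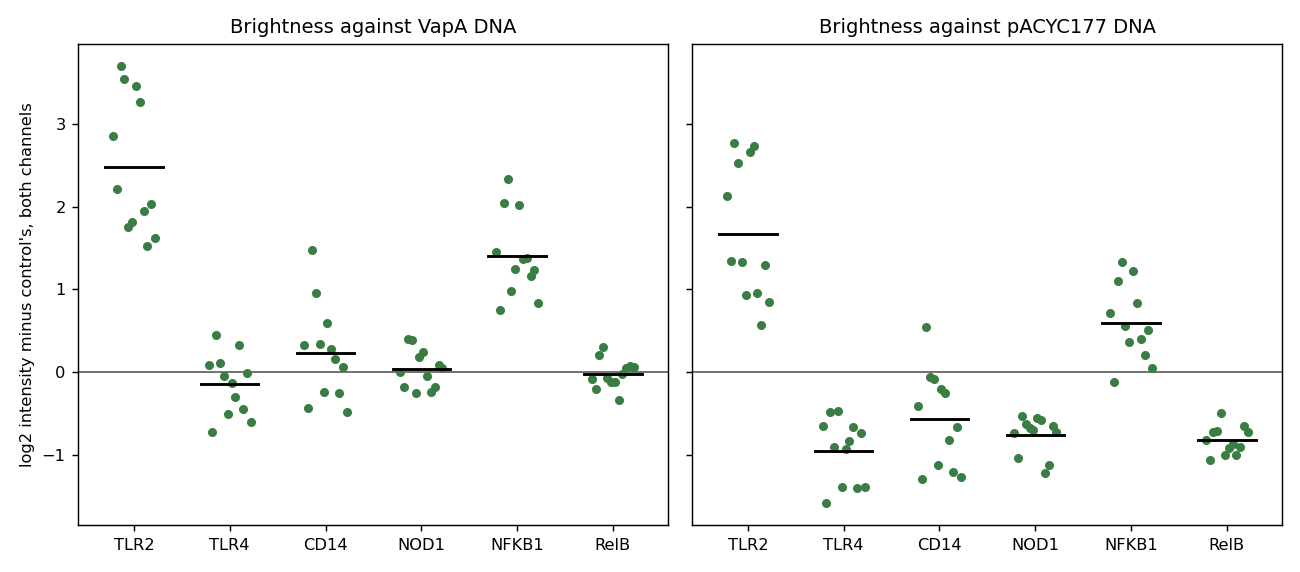
Log2 intensity of each member minus that of VapA DNA (left) or pACYC177 DNA (right), averaged over both channels, with 1 point per array (12 arrays) spread sideways for legibility and a bar at the mean. TLR2 lies above both DNAs on all 12 arrays, NFKB1 above VapA on 12 and pACYC177 on 11, and TLR4, NOD1 and RelB lie around VapA and below pACYC177.

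TLR2, the lipoprotein receptor, had the widest differences between genotypes among the members. On the 4 arrays of 050502 vs 070701 its log2 ratio was 0.57 and 0.69 in pair A and 1.10 and 1.14 in pair B. On the arrays of 070701 vs New it was 0.05 and 0.07 in pair A and 0.71 and 0.73 in pair B. On the arrays of 050502 vs New it was -1.52 and -1.57 in pair A against 1.23 and 1.41 in pair B. All 8 arrays of the first 2 comparisons lay on the side of the first-named genotype, whereas the third split by pair.

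The arrays of each TLR2 dye exchange lay close together, with a mean difference of 0.07 against 0.20 for the median probe, while the hybridised pairs lay far apart. The mean ratio of 050502 over 070701 was 0.87 (1.83-fold, SD 0.35, 95% interval of the fit -0.89 to 2.63). That of 070701 over New was 0.39 (1.31-fold, SD 0.47, interval -1.37 to 2.15), with nearly all of it from pair B. That of 050502 over New was -0.11 as labelled (SD 2.02, interval -1.87 to 1.65) and 1.43 with pair A turned (2.69-fold). The fit shares 1 estimate of spread per probe over all comparisons, so the opposed pairs widen all 3 intervals. With pair A turned, the interval for 050502 over 070701 was 0.38 to 1.36. That narrowing follows from turning the pair, a choice made after its values were seen, so nothing is read from it.

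CD14, the co-receptor that delivers lipopolysaccharide and a surface marker of monocytes, had smaller ratios of the same sign as TLR2 in 050502 vs 070701 and in 070701 vs New. Between 050502 and 070701 its log2 ratio was 0.27 and 0.25 in pair A and 0.08 and 0.44 in pair B, all above 0. Between 070701 and New it was 0.10 and -0.03 in pair A and 0.27 and 0.15 in pair B. Averaged by pair, CD14 read 0.03 and 0.21 there, where VapA read 0.10 and 0.07 and pACYC177 -0.01 and 0.11. The shared sign in 070701 vs New is therefore not set apart from non-matching DNA. Between 050502 and New it was -0.03 and -0.69 in pair A and 0.40 and 0.91 in pair B, again split by pair. The means were 0.26 (1.20-fold, SD 0.001), 0.12 (SD 0.12) and, for 050502 over New, 0.15 as labelled (SD 0.72) and 0.51 turned. The SD of 0.001 arose because both pairs averaged 0.26, although the arrays of a CD14 dye exchange differed by 0.30 on average.

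TLR4, the lipopolysaccharide receptor, had a log2 ratio of 050502 over 070701 of 0.05 and 0.23 in pair A and 0.21 and 0.47 in pair B, a mean of 0.24 (1.18-fold, SD 0.14). For 050502 over New the arrays read 0.40 and -0.21 in pair A and 0.18 and 0.70 in pair B, a mean of 0.27 (SD 0.24) as labelled and 0.17 turned. TLR4 thus kept a positive mean with that pair turned, but its arrays of the same RNAs differed by 0.61 in pair A. For 070701 over New the arrays lay between -0.09 and 0.11, with a mean of -0.004 (SD 0.09). Its signal was no brighter than VapA, as described above.

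NOD1, the cytoplasmic sensor of cell wall fragments, had near-identical small ratios of 050502 over 070701 on the 4 arrays, 0.11 and 0.10 in pair A and 0.08 and 0.08 in pair B, a mean of 0.09 (SD 0.02). For 050502 over New all 4 arrays were also above 0, at 0.05 and 0.20 in pair A and 0.13 and 0.40 in pair B. Their mean was 0.19 (SD 0.10) as labelled and 0.07 turned. For 070701 over New the arrays of pair A read 0.23 and -0.26 and those of pair B 0.02 and -0.02, a mean of -0.007 (SD 0.01). The small SD of NOD1 between pairs sits beside a mean difference of 0.16 between arrays of the same RNAs.

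NOD2, the related sensor of muramyl dipeptide, was also on the array and was no brighter than pACYC177. Its mean log2 ratios were 0.12 for 050502 over 070701, 0.33 for 050502 over New as labelled (0.25 turned) and 0.08 for 070701 over New. Its 6 hybridised pairs ran from 0.04 to 0.57 as labelled and from -0.08 to 0.57 turned.

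**Figure D2:**
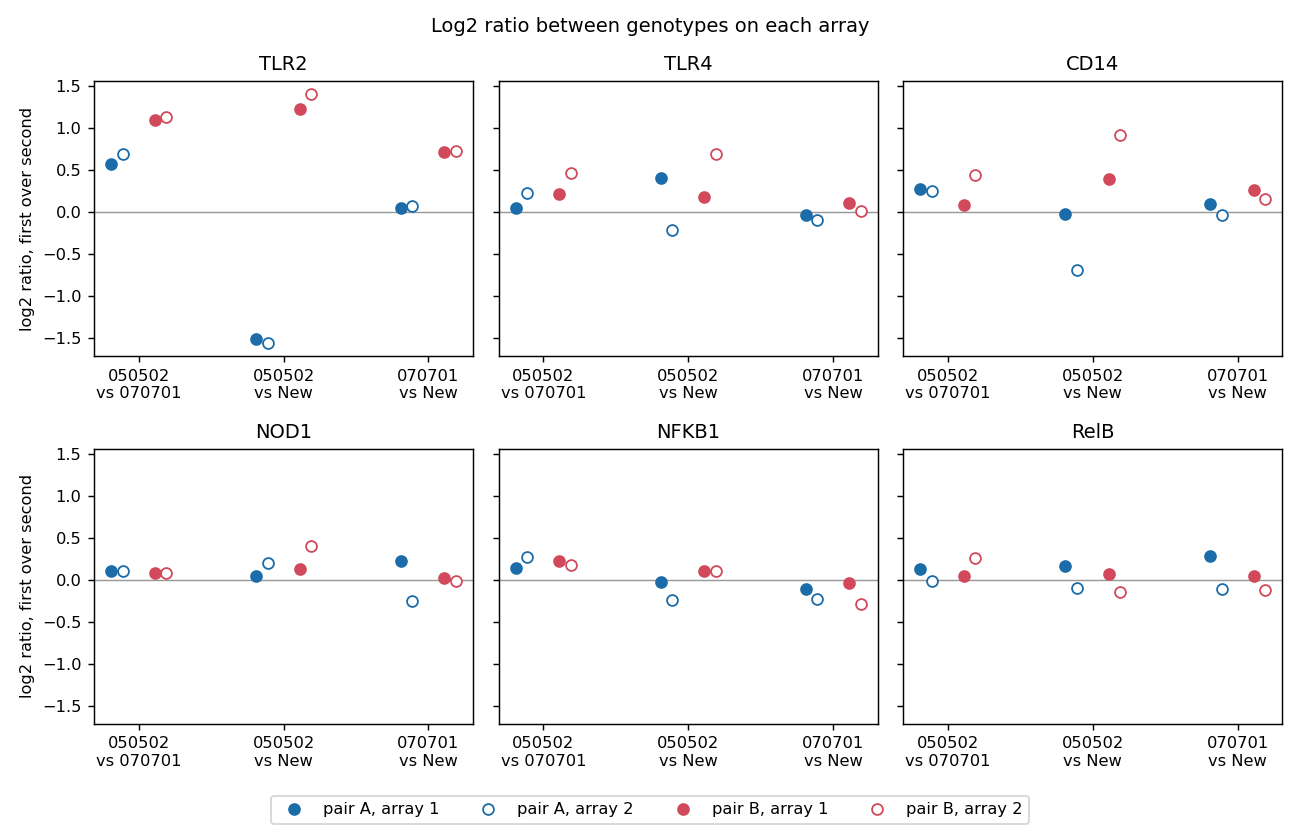
Log2 ratio of the first-named over the second-named genotype on each of 12 arrays, 1 panel per member and a common y axis. Blue marks hybridised pair A and red pair B, filled and open points are the arrays of a dye exchange, and all ratios are drawn as labelled. TLR2 spans -1.57 to 1.41 with each dye exchange close together, and NOD1, NFKB1 and RelB stay between -0.28 and 0.40.

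NFKB1 encodes the precursor of an NF-kB subunit that binds DNA. On the arrays of 050502 vs 070701 the log2 ratio was 0.15 and 0.27 in pair A and 0.23 and 0.17 in pair B. On the arrays of 070701 vs New it was -0.11 and -0.23 in pair A and -0.04 and -0.28 in pair B. All 4 arrays of the first comparison were above 0 and all 4 of the second below, so 070701 was the lower genotype in both. Both comparisons drew on the only 2 boars of 070701, and the labels do not say which boar was on which array.

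The hybridised pairs of NFKB1 agreed closely, at 0.21 and 0.20 for 050502 over 070701 and at -0.17 and -0.16 for 070701 over New. The mean ratios were 0.20 (1.15-fold, SD 0.004, interval 0.003 to 0.405) and -0.17 (New 1.12-fold over 070701, SD 0.006, interval -0.369 to 0.033). For 050502 over New the arrays read -0.03 and -0.24 in pair A and 0.11 and 0.10 in pair B. Their mean was -0.01 (SD 0.17) as labelled and 0.12 turned.

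A second NFKB1 probe, RG1, was no brighter than pACYC177. Its arrays read -0.03, 0.08, 0.39 and 0.10 for 050502 over 070701 and lay between -0.12 and -0.04 for 070701 over New. Its mean ratios were 0.14 and -0.07, with the same signs as those of TCR27 and smaller sizes, and -0.06 for 050502 over New as labelled (0.06 turned). Over the 12 arrays the ratios of the NFKB1 probes correlated with r = 0.68, or 0.61 over the 10 arrays without pair A of 050502 vs New. The arrays share animals and the arrays of a dye exchange share RNAs, so this is a description.

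RelB, a transcription factor of the alternative NF-kB pathway found in dendritic and B cells, showed little difference. Its 12 array ratios lay between -0.14 and 0.29. The arrays read 0.13, -0.02, 0.05 and 0.26 for 050502 over 070701, 0.17, -0.10, 0.07 and -0.14 for 050502 over New, and 0.29, -0.10, 0.04 and -0.12 for 070701 over New. The means were 0.11 (SD 0.07), -0.001 (SD 0.05, turned -0.03) and 0.03 (SD 0.09). Arrays of the same RNAs differed by 0.23 on average, more than any of these means.

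The other family members were as dim. NFKB2, the precursor of the subunit that pairs with RelB, had mean ratios of -0.003 for 050502 over 070701 and 0.10 for 070701 over New. For 050502 over New it had 0.13 as labelled and -0.10 turned, a change of sign. The family member c-REL had 0.06, 0.004 and, for 050502 over New, 0.02 (0.05 turned).

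For 050502 over 070701, all 6 member ratios were above 0, where 48.1% of all 185 probes were, and 5 of 6 members had all 4 arrays above 0, where 17.3% of probes did. Counting either side, these were 5 of 6 members against 29.2% of probes. The median of the 6 log2 ratios was 0.22, against -0.004 over all probes. The members were proposed with these ratios known, so the counts are a description. At an adjusted p under 0.05 in limma (Benjamini-Hochberg over 185 probes), 0 of 6 members passed, where 1.08% of probes did, and at an unadjusted p under 0.05 there was 1, NFKB1, where 8.11% did.

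Between 070701 and New, 3 of 6 members were above 0 (53% of probes), and 2 had all 4 arrays on 1 side (29.7% of probes), TLR2 above and NFKB1 below. On the upper side alone this was 1 member against 15.1% of probes. The median ratio of the members was 0.01, against 0.006 over all probes. In limma 0 members passed at the adjusted threshold (1.08% of probes) and 0 at an unadjusted p under 0.05 (7.57%).

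Between 050502 and New as labelled, 3 of 6 members were above 0 (51.4% of probes), and 1 member, NOD1, had all 4 arrays on 1 side (9.19% of probes; 4.32% above 0). With pair A turned, 5 of 6 were above 0 (54.1% of probes), all but RelB. TLR2, CD14 and NFKB1, 3 of 6, then had all 4 arrays above 0 (9.19% of probes, 20.5% on either side), and NOD1 did not. The median was 0.07 as labelled and 0.14 turned, against 0.002 and 0.02 over all probes. As labelled, in limma 0 members and 0% of probes passed the adjusted threshold, and 1 member, NOD1, was among the 8.11% with an unadjusted p under 0.05. Turned, 1 member passed, TLR2, where 2.16% of probes did, and 2 had an unadjusted p under 0.05, where 14.6% did. That follows in part from turning the pair by its own opposition, in which TLR2 was among the most opposed probes.

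**Figure D3:**
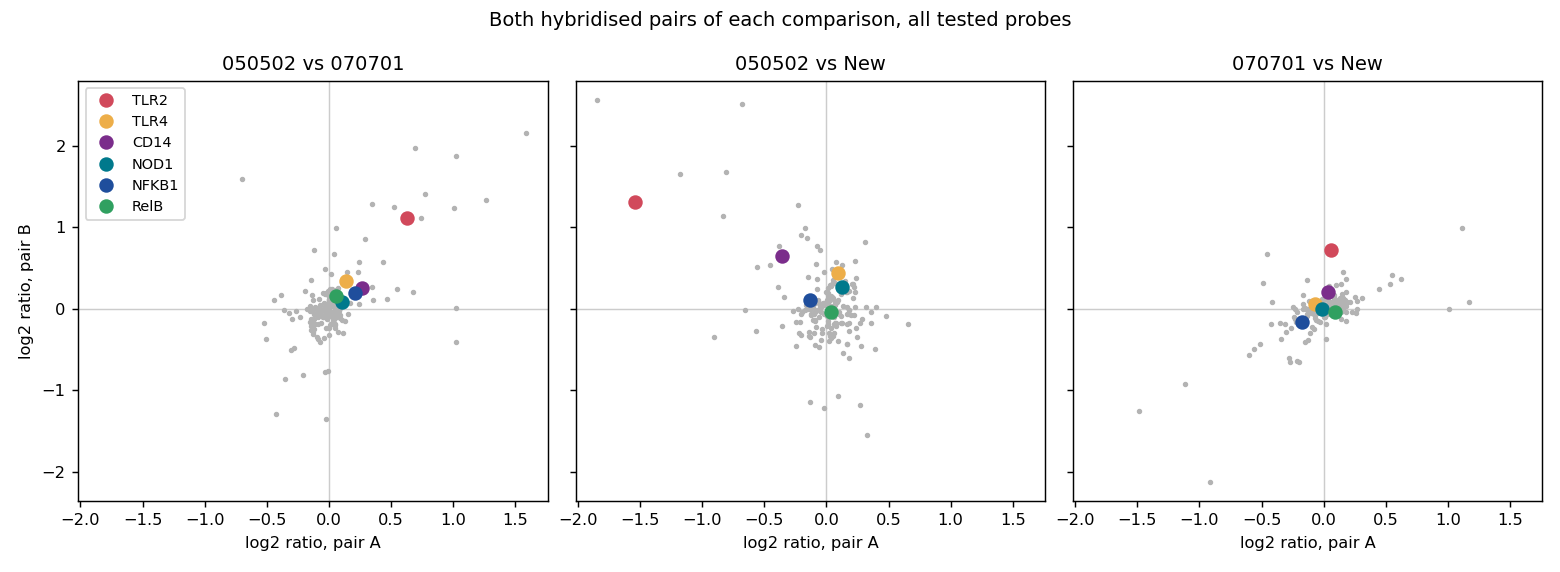
Log2 ratio in hybridised pair A (x axis) against pair B (y axis) for the 185 tested probes (grey) and the 6 members (colour), 1 panel per genotype pair, as labelled. In 050502 vs 070701 all 6 members lie above 0 in both pairs, and in 050502 vs New TLR2 lies at -1.54 in pair A and 1.32 in pair B and CD14 at -0.36 and 0.65.

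The level of each member in each genotype was read from single channels after normalization between arrays, with the arrays of a dye exchange averaged. This gives 4 hybridised pairs per genotype, drawn from only 2 boars, so the 4 values and their SD do not stand for 4 animals. TLR2 in 050502 boars stood at 12.24 and 12.84 in the pairs with 070701 and at 10.68 and 12.74 in pairs A and B with New. In 070701 boars it stood at 11.62 and 11.72 beside 050502 and at 11.13 and 11.52 beside New. In New boars it stood at 12.22 and 11.42 beside 050502 and at 11.07 and 10.80 beside 070701. The lowest TLR2 value of 050502 and the highest of New came from the same opposed pair.

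The order of mean TLR2 levels was 050502 (12.13 ± 1.00), 070701 (11.50 ± 0.26) and New (11.38 ± 0.62, SD over 4 hybridised pairs), and neighbours in this order overlapped. With the opposed pair turned, the same order read 12.51 ± 0.33, 11.50 ± 0.26 and 10.99 ± 0.33. The 050502 values, from 12.22 to 12.84, then lay above all others, while 070701 (11.13 to 11.72) and New (10.68 to 11.42) still overlapped. This separation also follows from turning the pair.

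CD14 levels had the same order, at 9.67 ± 0.32, 9.35 ± 0.32 and 9.25 ± 0.35 (9.76, 9.35 and 9.16 turned), and so had TLR4 at 9.16 ± 0.11, 9.03 ± 0.13 and 8.97 ± 0.29 (9.14, 9.03 and 8.99 turned). NOD1 stood at 9.28 ± 0.06, 9.17 ± 0.09 and 9.14 ± 0.14 in that order, and turning the pair put New (9.18) level with 070701 (9.17). In NFKB1 the order was 050502 at 10.68 ± 0.16, New at 10.62 ± 0.20 and 070701 at 10.44 ± 0.19 (10.71, 10.58 and 10.44 turned). In RelB it was 070701 at 9.18 ± 0.14, New at 9.17 ± 0.21 and 050502 at 9.12 ± 0.21. In all 5 of these genes the ranges of neighbouring genotypes overlapped. The genotype means of the bacterial DNA ran from 9.12 to 9.21 for VapA and from 9.92 to 10.08 for pACYC177. Those of NOD1 and RelB, as labelled, ran over no wider a range than those of pACYC177, and those of CD14, NFKB1 and TLR4 over a wider one.

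**Figure D4:**
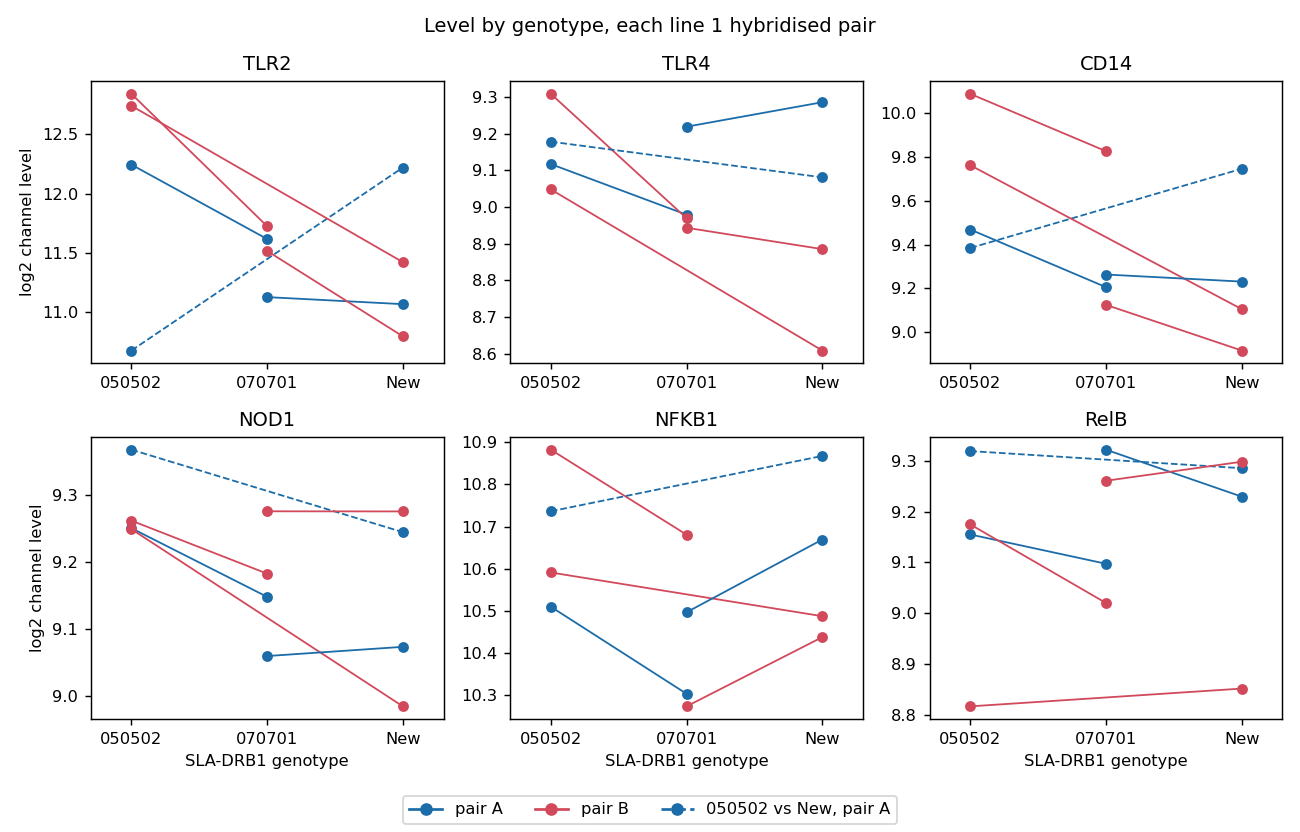
Log2 channel level of each member by genotype, with 1 line per hybridised pair joining its 2 genotypes (blue pair A, red pair B, dashed line the opposed pair A of 050502 vs New). The y axis differs between panels and does not start at 0. In TLR2 and CD14 the dashed line crosses the others, and in NFKB1 both lines from 050502 to 070701 go down and both from 070701 to New go up.

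How much a member varied over the 6 hybridised pairs was set beside the variation of the bacterial DNA, which should carry no genotype difference. The SD of the 6 log2 ratios was 1.04 for TLR2 (rank 6 of 185 probes), 0.33 for CD14 (rank 35), 0.19 for TLR4 (rank 68) and 0.18 for NFKB1 (rank 71), against 0.15 for the median probe. It was 0.10 for NOD1 (rank 135) and 0.07 for RelB (rank 169), near the 0.08 of both VapA and pACYC177. With the opposed pair turned, the SD was 0.54 for TLR2 (rank 16), 0.22 for TLR4, 0.21 for CD14, 0.17 for NFKB1, 0.13 for NOD1 and 0.08 for RelB, against 0.15 for the median probe, 0.08 for VapA and 0.07 for pACYC177. Single-array ratios of VapA ran from -0.24 to 0.17 and those of pACYC177 from -0.33 to 0.12. Every TLR2 array ratio outside pair A of 070701 vs New lay beyond both DNA ranges. The highest array ratios of NOD1 (0.40), NFKB1 (0.27) and RelB (0.29) also lay above both, while their lowest did not lie below that of pACYC177. Over the 6 hybridised pairs as labelled, VapA ran from -0.10 to 0.10 and pACYC177 from -0.14 to 0.11. NFKB1 ran from -0.17 to 0.21, beyond both DNAs on either side. NOD1 (-0.01 to 0.26) and RelB (-0.04 to 0.15) exceeded them on the upper side only. The mean ratios of NOD1, NFKB1 and RelB were no larger in size than 0.20.

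In a loop in which every boar meets a boar of each other genotype, the 6 ratios of a probe, taken with the sign of their place in the loop, sum to 0 apart from error. The labels do not say which boars met, so such a loop is assumed here. The sum was 2.75 for TLR2 as labelled, rank 2 of 185 by size, and -0.34 with the opposed pair turned, rank 39. CD14 gave 0.47 (rank 45) and -0.25. The other 4 members gave -0.22 to 0.27 as labelled and -0.16 to 0.34 turned, beside a median size of 0.23 and 0.17 over all probes. Dye exchange arrays of the 6 hybridised pairs correlated across probes with r from 0.19 to 0.85, lowest in pair A of 050502 vs New.

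Arrays were scanned on 5 days, and only 1 day held 2 genotype pairs, pair A of 050502 vs 070701 and pair B of 070701 vs New. Within that day the TLR2 log2 ratios were 0.63 and 0.72, those of CD14 0.26 and 0.21, and those of NFKB1 0.21 and -0.16. TLR4 stood at 0.14 and 0.06, NOD1 at 0.10 and 0.00, and RelB at 0.06 and -0.04. No day held arrays of 050502 vs New together with another comparison. Each array held both genotypes of its comparison, but in every comparison pairs A and B were scanned on different days. A difference between pairs A and B, as in 050502 vs New, therefore cannot be told apart from a difference between scan days.

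Among probes brighter than both bacterial DNAs, those whose 12 array ratios were most like a member's were named by Pearson r. For TLR2 they were IL1b, an inflammatory cytokine of monocytes (r = 0.93), MPIb, a chemokine (0.93), and Nalp3, a part of the inflammasome (0.79). Over the 10 arrays without the opposed pair these were 0.84, 0.94 and 0.86. CD14 was most like TLR2 (0.81, and 0.74 without the pair), IL1b (0.77, 0.66) and MPIb (0.75, 0.62). TLR4 was most like NFKB1 (0.61, 0.58), MPIb (0.55, 0.78) and Nalp3 (0.53, 0.66).

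NFKB1 had other partners: MHC-DY, a class II probe (0.86, and 0.93 without the pair), FcRg, a chain of Fc receptors (0.81, 0.80), and the lipid-presenting CD1a,b,d (0.77, 0.80). Among these bright probes NOD1 was most like LMP10, a subunit of the immunoproteasome (0.39), NFKB1 (0.34) and Nalp3 (0.30). RelB was most like FcRgIII (0.53), FcRg (0.45) and SOD (0.40). Between the members themselves r was 0.76 for TLR4 with CD14 and 0.53 for TLR2 with NFKB1, and for RelB it lay between -0.03 and 0.33 with each other member. TLR2 with TLR4 gave 0.42 over 12 arrays and 0.83 over 10. The arrays share animals and RNAs, so these are descriptions and carry no p.

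Genes that NF-kB activates in monocytes were counted from a list of 21, of which 15 were measured and 3 were brighter than both bacterial DNAs. Ratios were above 0 in 11 of 15 for 050502 over 070701 (median 0.11), in 13 for 050502 over New as labelled (median 0.24, turned 14 and 0.26) and in 10 for 070701 over New (median 0.02). Over all 185 probes, 48.1%, 51.4% (54.1% turned) and 53% of ratios were above 0 in that order, the scale for this list and those below. In limma 0 of the 15 passed in any comparison as labelled, where 1.08%, 0% and 1.08% of probes did. With the pair turned, 2 of the 15 passed for 050502 over 070701 and 2 for 050502 over New, where 2.16% of probes did in each. For 070701 over New 0 passed, where 1.08% of probes did. Of the 3 bright ones, IL1b had ratios of 1.59 and 2.16 in pairs A and B of 050502 vs 070701 and of -1.85 and 2.56 in those of 050502 vs New. MPIb had 1.02 and 1.87, and -1.18 and 1.65. RANTES, a chemokine of T cells, had -0.14 and 0.35, and 0.31 and 0.83.

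The pattern recognition list held 5 measured genes of 25, the 4 sensors and receptors above and NOD2, with 5, 4 (5 turned) and 3 above 0 in the order 050502 over 070701, 050502 over New as labelled and 070701 over New. Their medians were 0.24, 0.19 (0.25 turned) and 0.08. The NF-kB list held 4 of 16, with 3, 2 (2 turned) and 3 above 0 and medians of 0.08, 0.01 (0.007 turned) and 0.02. In limma 0 genes of either list passed as labelled, where 1.08%, 0% and 1.08% of probes did. With the pair turned, 1 pattern recognition gene, TLR2, passed for 050502 over New, where 2.16% of probes did.

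Markers of the cells that blood mononuclear fractions hold were read beside these values. In all lists here, array names that could stand for several genes, such as Granzyme, FcRI, IL8R, TIR and CD1a,b,d, were left unmatched. Counts of measured genes therefore cover matched names only. The monocyte and dendritic cell list had 4 measured genes of 13, CD14, CD80, CD86 and FcRgIII, of which only FcRgIII was brighter than both bacterial DNAs. Ratios were above 0 in 3, 2 (4 turned) and 4 of them in the same order, with medians of 0.14, 0.07 (0.10 turned) and 0.12. Its summed linear level ranged over 4 hybridised pairs from 6568 to 7588 in 050502, from 5895 to 8349 in 070701 and from 5517 to 7219 in New, which overlap and were the same with the pair turned. That sum mostly follows FcRgIII, whose mean log2 intensity was 12.30, against 9.42 for CD14, 9.26 for CD80 and 8.62 for CD86. It therefore says little about the other genes of the list. FcRgIII had ratios of 0.22, 0.20 (0.02 turned) and 0.15. Whether the number of monocytes contributed to the TLR2, TLR4 and CD14 ratios was not tested.

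The T cell list had 11 measured genes of 17, with 1, 4 (5 turned) and 7 above 0 and medians of -0.14, -0.06 (-0.07 turned) and 0.02. Its summed level ran from 13471 to 20266 in 050502, from 15156 to 23869 in 070701 and from 12964 to 19313 in New, and with the pair turned from 12964 to 20266 in 050502 and from 15727 to 19313 in New. The beta and alpha chains of the T cell receptor, its brightest probes, had ratios of -0.21 and -0.61 for 050502 over 070701, opposite in sign to every member. The B cell list had 4 of 10, with 2, 0 (1 turned) and 0 above 0, and IgG2a, its brightest, at -0.38, -0.64 (-0.51 turned) and -0.31. The summed B cell level ran from 2782 to 3522 in 050502, from 3065 to 3981 in 070701 and from 3602 to 4570 in New, so that 050502 and New did not overlap. With the pair turned they did, at 2782 to 3602 in 050502 and 3178 to 4570 in New. The natural killer list had 1 matched and measured gene, FasL, at 0.03, 0.01 (0.10 turned) and -0.0008. The neutrophil list had 1 matched name on the array, Lactoferrin, which was too dim to test. Their part in the member ratios was not tested.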

How the data were processed

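Slides were scanned and spots measured by the authors, and spot intensity was deposited as scanned, with no normalization, per the file headers. The percent of saturated pixels per spot is also deposited, per the file headers, and reached 7% in TLR2 and 0% in the other members. The authors' deposited value table holds log2 ratios of red over green, which equalled the log2 ratio of background-subtracted medians within 0.001 on every array, with no centring and no change of sign between dye runs, and was used only as an alternative. The species and sequences of the probes are not given in the sources used here, and no sequence was used here.

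Foreground medians were corrected with normexp (offset 50) and log ratios with global loess in limma 3.58.1 (R 4.3.3). The loess curve ignored controls and spots that the software did not find. Repeated spots were averaged, ratios turned to the first-named genotype, and dye exchange arrays, which share RNAs, averaged to 6 ratios. A probe was kept if it exceeded background by 2 background SD in 1 channel or more on at least 6 of 12 arrays. lmFit and eBayes used 1 coefficient per genotype pair, with 3 residual and 1.85 prior degrees of freedom and two-sided p adjusted by Benjamini-Hochberg over 185 probes. The fit takes the 6 ratios as independent, although boars recur. Levels came from single channels after Aquantile scaling. The procedure was also run on simulated ratios, drawn independently and with known changes that were equal in every comparison. That run held no recurring boars and no opposed pair, so it does not test the fit under those features.

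The members, lists and alternatives were chosen with earlier results of these data known. The text names every member, other probes of their families, the brightest genes of each list, and for each member the 3 bright probes most like it by r. IL1b, MPIb and RANTES are the bright genes of their list. Alternatives covered background, normalization, filters, spot summary, single dye arrays, a pair left out, the replicate letter, scan date and a loop model.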

Additional observations from a re-analysis of the deposited data

Results flagged for a closer look

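Each of the 6 members was examined in each of the 3 genotype pairs for 1 array of 4 lying far from the other 3, by Dixon's gap test at its 95% critical value. Of these 18 groups of arrays, 0 were picked out, where chance picks out about 1 in 20 if the 4 arrays are independent. They are not, since arrays of a dye exchange share RNAs, so nothing is read from this count. The opposed TLR2 values of 050502 vs New lie 2 against 2 and so are not picked out by this test.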

How the results depend on the processing

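In limma, 2 probes passed an adjusted p under 0.05 in 050502 vs 070701, 0 in 050502 vs New (15 at an unadjusted p under 0.05) and 2 in 070701 vs New. For 050502 vs 070701 the count was 1 with median centring, 0 with the deposited values, 1 with the first and 1 with the second dye array alone, 6 with scan date as a random block, and 0 to 3 with a hybridised pair left out. For 050502 vs New it was 0 to 2 with a pair left out, 2 being without its own pair A. For 070701 vs New it was 1 with the deposited values, 1 with the first and 1 with the second dye array alone, 9 with scan date as a block, 5 in a loop model with 1 level per genotype, and 0 to 3 with a pair left out. With the opposed pair turned, the counts were 4, 4 and 2, and in the loop model with that pair turned, a setting chosen after seeing the data, 17, 11 and 4. Where a pair was left out, the remaining one is assumed to vary like the others. The fit with scan date as a block took the 12 arrays singly. Arrays of a dye exchange, which share RNAs, thus counted there as separate replicates, unlike in the main fit. The cause of these changes was not tested.

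Of the 18 member ratios, 10 kept their sign in each setting that did not turn the pair, and 0 members passed there. The share of all probes that kept their sign is not given, so this count is not read as a trait of the members. TLR2 for 050502 over New was 1.32 without pair A and -1.54 without pair B, and the labelled loop model moved TLR2 for 050502 over 070701 from 0.87 to 0.41. With the pair turned, 1 member ratio passed in the fit by genotype pair, TLR2 for 050502 over New, where 4 of 185 probes did. In the loop model with the pair turned, 4 member ratios passed. For 050502 over 070701 they were TLR2 at 0.93 and NFKB1 at 0.23, where 17 of 185 probes passed. For 050502 over New they were TLR2 at 1.37 and CD14 at 0.47, where 11 of 185 probes passed. No brightness against VapA or pACYC177 moved by more than 1 SD over arrays with another background correction, a single channel or the median of spots.

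With the letter A or B as a replicate block the counts were 2, 0 and 3. The differences of B from A correlated across probes with r = 0.53, 0.62 and 0.43 between comparisons, but with 2 letters this does not show that the letter pairs the animals. Precision is limited by 2 boars per genotype, and for TLR4, CD14, NOD1 and RelB by a signal near that of bacterial DNA.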
